A study of Mus musculus with 16 samples.

Results

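The mRNA of 10 heat shock proteins was followed in dispersed mouse islet cells in which the gene for the endoplasmic reticulum (ER) chaperone GRP78 (gene symbol Hspa5) carried loxP sites. The 10 genes were Hspa1a, Hspa1b, Hspa8, Hsp90aa1, Hsp90ab1, Hsph1, Dnajb1, Dnaja1, Hspb1 and Hspe1. They were taken by symbol from 25105 genes listed, as readouts of heat shock factor 1 (HSF1) to set against the chaperones of the ER, and 10 of 10 passed the filter on low values in every comparison. Islet cells came from adult Grp78 flox/flox mice. Cells of each preparation received a control adenovirus expressing LacZ (Ad-LacZ) or one expressing Cre recombinase (Ad-Cre), at matched multiplicity. They were given a JNK inhibitor (JNK-IN-8, a covalent inhibitor of the JNK kinases) or DMSO, and were cultured for 72 h in 15 mM glucose. The groups called Ad-LacZ and Ad-Cre below, without the inhibitor, are those labelled with DMSO. All 4 groups therefore share the floxed alleles, dispersal, an adenovirus and the culture. Every group held 4 libraries, 1 from each of 4 preparations labelled F1, M1, M2 and F2, of which 2 were labelled female and 2 male. The titles name 2 animal numbers for each preparation. Both viruses used the CMV promoter, which is not restricted to a cell type, so any islet cell type could be transduced, and in bulk RNA fewer cells of a type and less RNA per cell cannot be told apart.

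Heat shock proteins are molecular chaperones. HSP70 proteins bind unfolded stretches of other proteins in cycles of ATP hydrolysis, HSP40 (J domain) proteins deliver substrates and start hydrolysis, HSP110 proteins exchange the nucleotide, and HSP90 proteins finish the folding of kinases and receptors. HSF1 is the transcription factor that raises the inducible members when unfolded protein builds up in the cytosol, whereas the ER has chaperones of its own, raised by the unfolded protein response through ATF6, XBP1 and ATF4. The β cell folds large amounts of proinsulin in its ER, and GRP78 is the HSP70 of that compartment.

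The label "cytosolic" held for 9 of the 10 genes as a matter of textbook location. Hspe1 encodes HSP10, the lid of the mitochondrial HSP60 chaperonin, and was kept as a member under that description. Hspa8 and Hsp90ab1 are largely constitutive, while Hspa1a, Hspa1b, Dnajb1, Hsph1 and Hspb1 are classical inducible genes.

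Sequencing depth, read from the steps between low values, lay between about 7720000 and 25470000 reads per library. The library of F2 in Ad-Cre + JNK inhibitor was the shallowest, and its column name carries another prefix and another lane code than the other libraries. At these depths the least covered member, Hspa1a, had 65 to 401 reads per library and Hsp90ab1 had 16670 to 46174. The targeted gene went against its label: Hspa5 measured 438 ± 49.0 RPKM (SD, n = 4) in Ad-LacZ and 1264 ± 231 RPKM in the libraries labelled Ad-Cre. These values are per gene and do not separate the floxed exons, so they do not check recombination, and every direction below is between libraries as labelled. Islet hormone genes dominated all libraries: the 9 β cell markers summed to between 33252 and 84724 RPKM, while 6 acinar markers summed to no more than 10.9 RPKM.

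HSF1 binds inverted GAA units, which together form a heat shock element. RefSeq sequence (GRCm38.p6) was at hand for 7 of the 10 members, in the 250 bases before each start, and not for Hspa8, Hsp90aa1 and Hsp90ab1. Of the 7, 6 held such letters at 1 or more of their starts, and 5 of those are shown as examples, beside 2 of the ER chaperones used for comparison below. All windows read 5′ to 3′ on the strand of the gene. In the first 5 windows capitals mark 2-unit elements (GAANNTTC or TTCNNGAA, each the same on both strands), which overlap in Hspe1. In the last 2 windows they mark the ER stress response element (CCAAT, then 9 bases of any kind, then CCACG, on either strand).
Hspa1a, chr17:34972217-34972296, minus strand: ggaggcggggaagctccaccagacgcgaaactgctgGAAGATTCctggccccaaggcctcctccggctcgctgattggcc
Hspa1b, chr17:34959299-34959378, minus strand: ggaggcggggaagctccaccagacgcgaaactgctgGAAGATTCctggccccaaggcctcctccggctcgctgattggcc
Hspb1, chr5:135887776-135887855, plus strand: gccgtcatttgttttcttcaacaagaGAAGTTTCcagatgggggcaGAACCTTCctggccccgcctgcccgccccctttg
Hspe1, chr1:55088053-55088082, plus strand: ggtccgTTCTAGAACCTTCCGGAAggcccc
Dnaja1, chr4:40722333-40722362, plus strand: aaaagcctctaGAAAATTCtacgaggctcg
Hspa5, chr2:34772020-34772049, plus strand: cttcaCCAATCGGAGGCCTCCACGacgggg
Hsp90b1, chr10:86705533-86705656, minus strand: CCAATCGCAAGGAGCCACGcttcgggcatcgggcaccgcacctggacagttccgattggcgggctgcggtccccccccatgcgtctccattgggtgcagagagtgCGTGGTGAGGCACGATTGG

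A 2-unit element lay 104 bases before the start in both Hspa1a and Hspa1b, at 117 and 97 bases in Hspb1 and at 124 bases before 1 of the 3 starts of Dnaja1. Hsph1 also held one, at 33 and 54 bases before its 2 starts, and neither start of Dnajb1 did. For comparison, 12.8% of 32851 promoters of this length held a 2-unit element. The run in Hspe1 is longer and contains 3-unit elements, in which GAA and TTC alternate with gaps of 2 bases (searched on both strands, each holding both 2-unit elements), which 0.466% of promoters held. The ER stress response element was in 0.113% of promoters, among them those of Hspa5 and Hsp90b1, and in no member with a sequence at hand. Of the other ER counterparts, Dnajb11 held neither kind of element and Hyou1 had no sequence, so these letters do not sort the 2 compartments. A match describes these letters only. By the GRCm38 gene models, the windows of Dnaja1 and Hspa5 lie inside the annotated gene, downstream of its outermost start, and the window of Hspe1 lies upstream of Hspe1 but inside the neighbouring gene Hspd1 on the opposite strand. The other windows lie upstream of the gene they are named for.

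The abundant members without a promoter sequence are Hspa8 on chromosome 9 (40800984 to 40810087, plus strand), Hsp90aa1 on chromosome 12 (110690605 to 110702728, minus strand) and Hsp90ab1 on chromosome 17 (45567775 to 45573271, minus strand), all in GRCm38.

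The 10 mRNAs differed widely in level in the control libraries. RPKM corrects read counts for gene length and for depth. The length that fits the deposited values is that of all merged exons of a gene (8629 bases for Dnaja1 and 3204 for Dnajb1). Transcripts in the cells can be shorter, so levels of different genes compare only roughly. In Ad-LacZ, Hsp90ab1 was highest at 480 ± 27.6 RPKM, followed by Hspa8 at 310 ± 29.2 and Hsp90aa1 at 120 ± 6.01 (SD, n = 4), and the ranges of these 3 did not overlap each other or those below. Together they made up 89.2 to 89.9% of the summed RPKM of the 10 genes. Hspe1 (26.8 ± 6.66), Hsph1 (23.9 ± 0.979), Dnaja1 (20.8 ± 1.82), Hspb1 (15.9 ± 5.77) and Dnajb1 (12.0 ± 1.56) came next, and each overlapped its neighbour. The inducible HSP70 genes were lowest, Hspa1b at 4.29 ± 1.81 and Hspa1a at 2.17 ± 0.647. The same 3 genes led in all 4 groups. In Ad-Cre, Hspb1 stood above Hsph1 and Dnaja1 in the mean without a gap between its range and that of Hsph1.

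**Figure D1:**
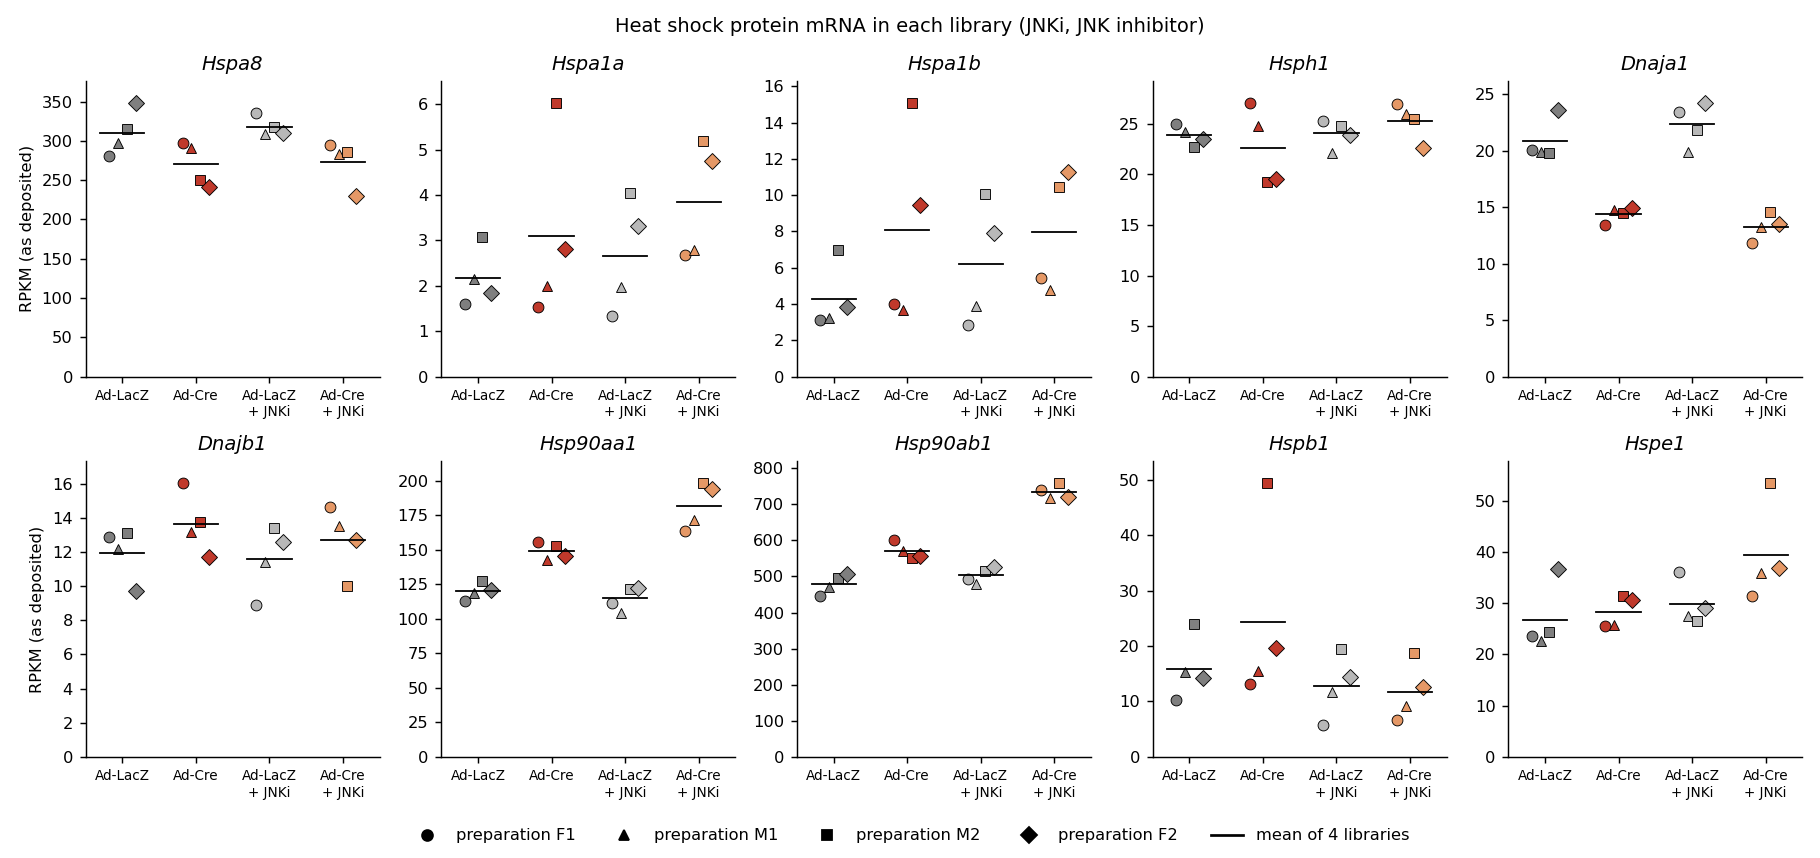
RPKM of each of the 10 heat shock protein genes (vertical axes from 0) in the 16 libraries, by group; symbols give the preparation and bars the mean of 4 libraries. Dnaja1 is lower in every library labelled Ad-Cre than in any labelled Ad-LacZ, Hsp90ab1 is highest with Ad-Cre + JNK inhibitor (717 to 759 RPKM), and Hspa1a, Hspa1b and Hspb1 spread widely, with preparation M2 high.

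The first comparison asks what the Cre virus did to cytosolic chaperone mRNA while the ER chaperones changed. Of the 10 members, 1 passed an adjusted p of 0.05 (limma, Benjamini-Hochberg over 11590 genes), against 15.9% of all genes tested (7.71% higher and 8.21% lower), and it fell. That gene was Dnaja1, an HSP40 that works with HSC70. No member rose by this test, and the median change of the 10 was 0.23 on the log2(RPKM + 1) scale beside 0.01 over all genes. None met the criteria of the study (unadjusted p under 0.05 with a fold change above 1.5), which 10.1% of genes met.

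Dnaja1 measured 20.02, 19.9, 19.8 and 23.5 RPKM in Ad-LacZ (F1, M1, M2 and F2) and 13.4, 14.7, 14.4 and 14.9 RPKM in the libraries labelled Ad-Cre. The groups did not overlap, as for 24.2% of genes, and the level was lower in 4 of 4 preparations. Dnaja1 fell by 0.48 on the log2 scale (SE 0.11, adjusted p = 0.0239, limma, and exact permutation p = 0.0286, the smallest possible with 4 against 4 libraries). With 3 preparations the fall was similar, 0.42 to 0.52, but the adjusted p was 0.0983 without F1, 0.0941 without M1 and 0.144 without F2, and over 12 alternatives it ran from 0.00671 to 0.144.

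The 2 HSP90 genes of the cytosol were a little higher in the libraries labelled Ad-Cre. Hsp90aa1, the stress-inducible isoform, measured 113, 118, 127 and 121 RPKM in Ad-LacZ and 155, 143, 153 and 145 RPKM in Ad-Cre. Every Ad-Cre value lay above every Ad-LacZ value, yet the log2 difference of 0.33 (SE 0.12) had an adjusted p of 0.0915 (limma), which became 0.0359 with the preparation as a block and ran from 0.0305 to 0.425 over the alternatives. Hsp90ab1, the constitutive isoform, went from 446, 469, 497 and 507 RPKM to 601, 570, 551 and 557 RPKM, a log2 difference of 0.27 (SE 0.15, adjusted p = 0.251, limma). Its sign depended on the scaling, being -0.19 after quantile normalization.

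The cytosolic HSP70 genes went apart without passing the test. Hspa8, the constitutive HSC70, was at 280, 297, 315 and 348 RPKM in Ad-LacZ and 297, 291, 250 and 242 RPKM in Ad-Cre. On the scaled values it was higher in F1, level in M1 and lower in M2 and F2. Its log2 difference of -0.18 (SE 0.17) had an adjusted p of 0.499 (limma). After quantile normalization the difference was -0.52 with an adjusted p of 0.0209 (limma; range over the alternatives 0.0209 to 0.913).

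Hspa1b and Hspa1a encode nearly the same stress-inducible HSP70 from neighbouring genes 9951 bases apart on chromosome 17, with 247 of 250 promoter bases identical, so reads may have been split between them. Hspa1b measured 3.15, 3.22, 6.96 and 3.81 RPKM in Ad-LacZ and 4.00, 3.70, 15.1 and 9.45 RPKM in Ad-Cre. It was higher in 4 of 4 preparations, mainly in M2 and F2, and the groups overlapped. The log2 difference was 0.65 (SE 0.33, adjusted p = 0.212, limma), with an adjusted p of 0.0203 with the preparation as a block (0.0203 to 0.528 over the alternatives). Hspa1a measured 1.60, 2.15, 3.08 and 1.85 RPKM in Ad-LacZ and 1.54, 1.99, 6.03 and 2.81 RPKM in Ad-Cre, with a log2 difference of 0.28 (SE 0.25, adjusted p = 0.463). The sum of the 2 genes differed by 0.58 (SE 0.32, adjusted p = 0.251, limma, and 0.0319 with the block).

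The small heat shock protein HSP27, from Hspb1, keeps unfolded proteins soluble and binds actin. Hspb1 measured 10.2, 15.2, 24.0 and 14.3 RPKM in Ad-LacZ and 13.1, 15.5, 49.4 and 19.7 RPKM in Ad-Cre. It was higher in 4 of 4 preparations and by far most in M2, with a log2 difference of 0.47 (SE 0.33, adjusted p = 0.356, limma, and 0.0440 with the block; 0.0440 to 0.549 over the alternatives). Without M2 the difference was 0.28.

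Markers of stromal cells moved with these genes across preparations. The 6 stellate and fibroblast markers, all listed in the file, summed to 23.5, 32.4, 105 and 54.2 RPKM in Ad-LacZ and 21.8, 31.4, 676 and 175 RPKM in Ad-Cre. With the inhibitor their sums ran from 43.6 to 507 RPKM in Ad-LacZ and from 25.6 to 145 RPKM in Ad-Cre. A level above 1 RPKM in the mean was reached by 4 of the 6 in Ad-LacZ and 6 of the 6 in Ad-Cre, and Lum was at 0 in F1 in both. The 7 macrophage markers summed to 70 to 78.4 RPKM in Ad-LacZ and 69.7 to 205 RPKM in Ad-Cre. Preparations M2 and F2 thus carried both the most stromal marker RNA and the largest differences of Hspa1b, and their part in those differences was not tested. With the mean of each group subtracted, the log2 levels of the collagen genes Col1a1 and Col3a1 ran with Hspa1b (Pearson's r = 0.971 and 0.970 over 16 libraries), Hspa1a (0.953 and 0.942) and Hspb1 (0.901 and 0.880). They ran as closely against Hsp90ab1 (r = -0.900 and -0.929) and Hsph1 (-0.921 and -0.943). These values are descriptive, since libraries of a preparation share their cells.

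**Figure D2:**
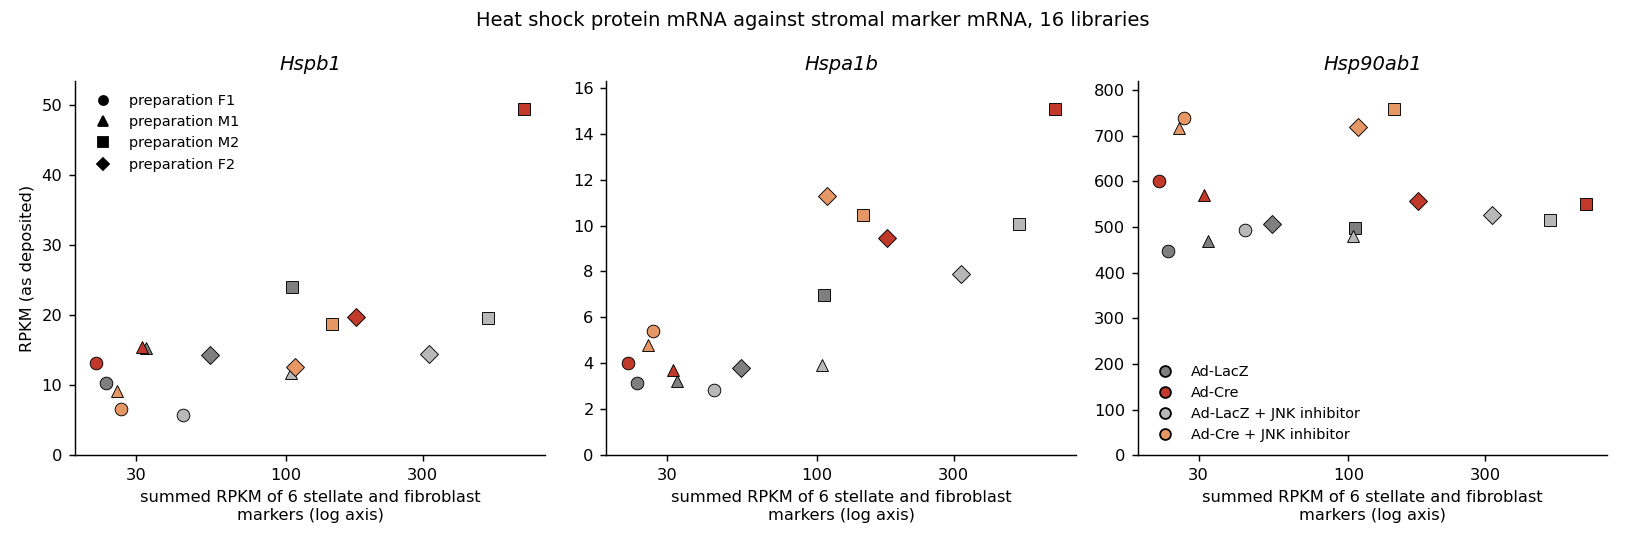
RPKM of Hspb1, Hspa1b and Hsp90ab1 (vertical axes from 0) against the summed RPKM of 6 stellate and fibroblast markers (log axis) in 16 libraries; colour gives the group and symbol the preparation. The Ad-Cre library of M2 is highest for the markers (676 RPKM), Hspb1 (49.4 RPKM) and Hspa1b (15.1 RPKM), while Hsp90ab1 is highest in the 4 libraries of Ad-Cre + JNK inhibitor (717 to 759 RPKM).

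The remaining members were close to level. Dnajb1, the HSP40 most strongly tied to HSF1, ranged from 9.70 to 13.1 RPKM in Ad-LacZ and from 11.7 to 16.0 RPKM in Ad-Cre (log2 difference 0.20, SE 0.16; adjusted p = 0.415, limma). Hsph1, the HSP110 of the cytosol, ranged from 22.7 to 25.0 RPKM and from 19.2 to 27.1 RPKM (log2 difference -0.07, SE 0.18; adjusted p = 0.833). Hspe1 was at 23.6, 22.5, 24.3 and 36.7 RPKM in Ad-LacZ and 25.6, 25.7, 31.4 and 30.6 RPKM in Ad-Cre (log2 difference 0.12, SE 0.15; adjusted p = 0.618, limma). It was higher in 3 of 4 preparations and lower in F2, whose Ad-LacZ library stood above the other 3. With the preparation as a block, 4 of the 10 members passed in this comparison, Hspa1b, Hsp90aa1 and Hspb1 higher and Dnaja1 lower, against 34.5% of all genes in that fit.

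The same contrast in the presence of the inhibitor gave 3 members past an adjusted p of 0.05, against 19.7% of 11598 genes (10.3% higher and 9.37% lower). Hsp90aa1 and Hsp90ab1 were higher and Dnaja1 was lower in Ad-Cre + JNK inhibitor than in Ad-LacZ + JNK inhibitor. These 3 were also the members whose groups did not overlap, a state shared by 25.5% of genes. The median change of the 10 was 0.40 on the log2 scale, beside -0.01 over all genes.

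Hsp90aa1 measured 111, 104, 122 and 122 RPKM in Ad-LacZ + JNK inhibitor and 163, 172, 198 and 194 RPKM in Ad-Cre + JNK inhibitor. The gap between the groups was wider than the spread within either, and the log2 difference was 0.81 (SE 0.14, adjusted p = 0.00544, limma, and exact permutation p = 0.0286). It was 0.38 with an adjusted p of 0.0805 after quantile normalization, and the adjusted p was 0.0856 without M1 and 0.0895 without F2, within 9.4e-05 to 0.0895 over the alternatives. Hsp90ab1 measured 493, 480, 514 and 526 RPKM against 739, 717, 759 and 720 RPKM. The log2 difference was 0.70 (SE 0.17, adjusted p = 0.0193, limma, and exact permutation p = 0.0286) and higher in 4 of 4 preparations. After quantile normalization, which gives every library the same set of values by rank, it was -0.01 with an adjusted p of 0.971. The adjusted p of Hsp90ab1 was also above 0.05 without M1 (0.176), without F2 (0.155), without the shallow Ad-Cre + JNK inhibitor library of F2 alone (0.0524) and with no filter on low values (0.0967), and it ran from 0.0012 to 0.971 over the alternatives.

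Dnaja1 measured 23.4, 19.9, 21.8 and 24.2 RPKM in Ad-LacZ + JNK inhibitor and 11.8, 13.3, 14.6 and 13.5 RPKM in Ad-Cre + JNK inhibitor. As without the inhibitor, no value of the Cre virus reached the lowest value of the control virus. Dnaja1 fell by 0.56 on the log2 scale (SE 0.14, adjusted p = 0.0206, limma, and exact permutation p = 0.0286). The adjusted p was 0.0643 without F1, 0.117 without M1, 0.154 without F2 and 0.0634 without the shallow library, with falls of 0.43 to 0.61 in those fits, and ran from 0.00254 to 0.154 over the alternatives.

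Hspa1a, Hspa1b and Hspe1 were higher in the mean without passing. Hspa1a measured 1.34, 1.98, 4.04 and 3.31 RPKM in Ad-LacZ + JNK inhibitor and 2.68, 2.79, 5.18 and 4.76 RPKM in Ad-Cre + JNK inhibitor, and was higher in 4 of 4 preparations by 0.47 to 0.69 on the log2 scale. Its mean log2 difference of 0.56 (SE 0.22) had an adjusted p of 0.0955 (limma) and of 0.0129 with the preparation as a block (0.0129 to 0.285 over the alternatives). Hspa1b went from 2.83, 3.92, 10.1 and 7.90 RPKM to 5.43, 4.79, 10.5 and 11.3 RPKM, a log2 difference of 0.52 (SE 0.31, adjusted p = 0.259, limma, and 0.0316 with the block; 0.0316 to 0.510 over the alternatives). The difference in M2 was the smallest here, 0.28, where it had been 1.02 without the inhibitor.

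Hspe1 was at 36.1, 27.5, 26.6 and 29.1 RPKM in Ad-LacZ + JNK inhibitor and 31.3, 35.8, 53.4 and 36.8 RPKM in Ad-Cre + JNK inhibitor. The difference was largest in M2 and of the opposite sign in F1, and averaged 0.52 (SE 0.21, adjusted p = 0.108, limma). Without F1 it was 0.76 with an adjusted p of 0.0409 (0.0409 to 0.317 over the alternatives). Hspd1, which encodes the HSP60 partner and overlaps Hspe1 by 112 bases on the opposite strand, measured 79.9 ± 1.60 and 99.4 ± 13.0 RPKM (SD, n = 4), a log2 difference of 0.46 (SE 0.16, adjusted p = 0.0677, limma). Strand-specific counting was not stated, so reads in that overlap cannot be assigned.

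The other 4 members showed little. Hspa8 differed by -0.06 (SE 0.19), Hspb1 by 0.05 (SE 0.31), Hsph1 by 0.22 (SE 0.15) and Dnajb1 by 0.28 (SE 0.16) on the log2 scale, with adjusted p of 0.849, 0.936, 0.343 and 0.237 (limma). The shift of Hspa8 under quantile normalization was larger, -0.62 with an adjusted p of 0.00944 (limma; 0.00944 to 0.982 over the alternatives). With the preparation as a block 5 members passed, Hspa1a and Hspa1b joining the 3 named above, against 24.2% of genes.

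**Figure D3:**
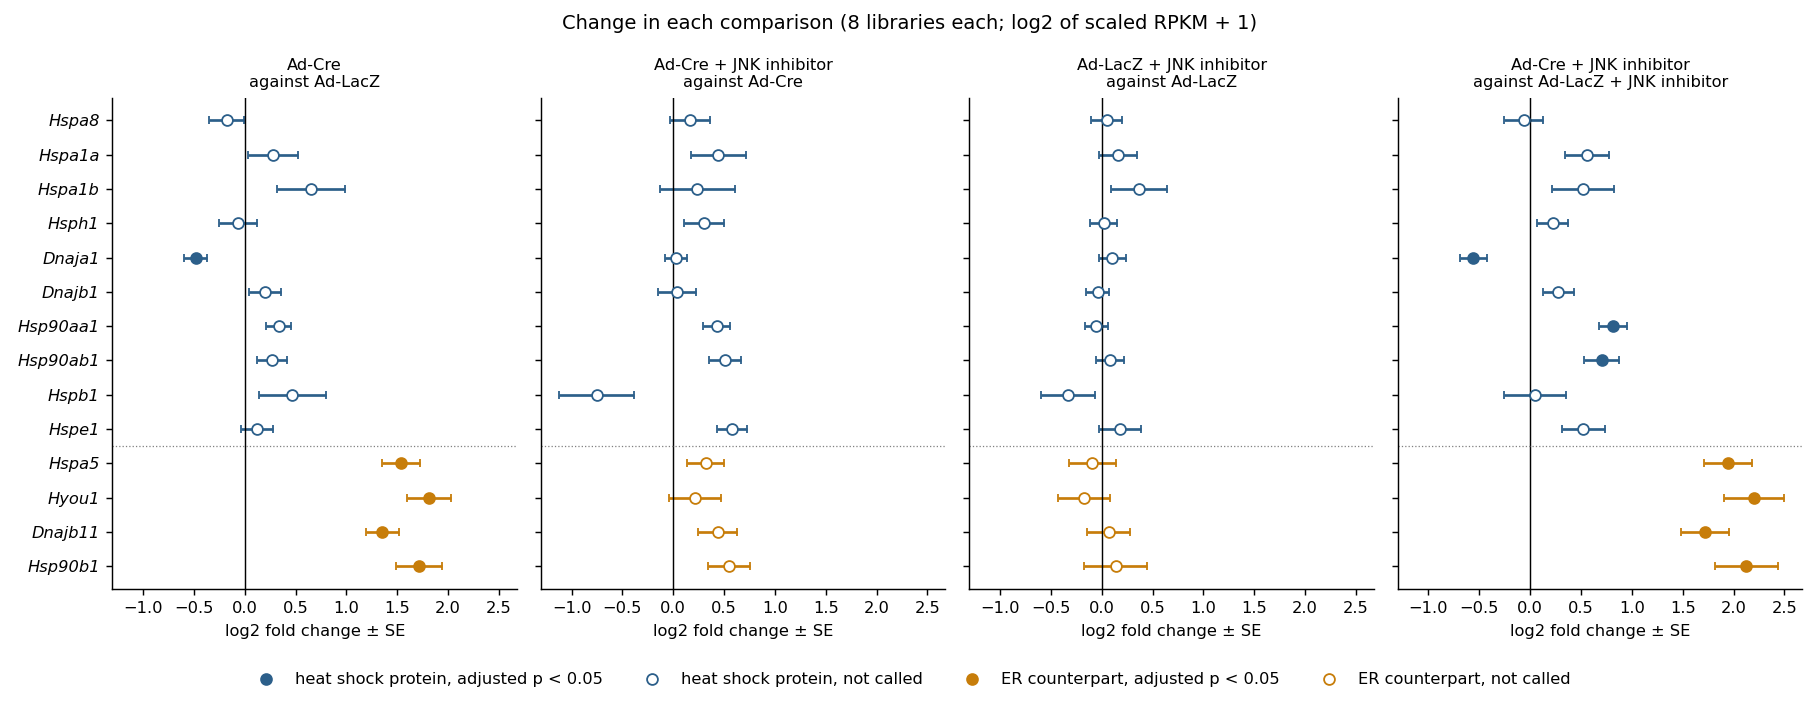
Log2 fold change with its SE (horizontal axes) of the 10 heat shock protein genes (blue) and 4 ER counterparts (orange) in 4 comparisons of 8 libraries each; filled points have an adjusted p under 0.05. All 4 ER counterparts are called in both comparisons of Ad-Cre with Ad-LacZ, where Dnaja1 is lower and, with the inhibitor only, Hsp90aa1 and Hsp90ab1 are called higher.

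The inhibitor itself was compared within each virus. In cells that received Ad-LacZ, 0 of the 10 members passed an adjusted p of 0.05 (limma), against 0.18% of 11657 genes, and 0 passed an unadjusted p of 0.05, as 5.69% of genes did. The median change was 0.06 and the range was -0.33 for Hspb1 to 0.37 for Hspa1b. Hspb1 was lower in 4 of 4 preparations and Hspa1b higher in 4 of 4, on the scaled values, and in both genes the groups overlapped.

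In the libraries labelled Ad-Cre, 0 of 10 members passed an adjusted p of 0.05 (limma), against 0.0174% of 11503 genes, and 3 passed an unadjusted p of 0.05, as 8.07% of genes did. These were Hsp90aa1, Hsp90ab1 and Hspe1, and they also met the criteria of the study for the inhibitor (a fold change above 1.2), as 7.74% of genes did. They were the 3 members whose scaled values did not overlap between the groups, against 5.95% of genes. All 3 were higher with the inhibitor.

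Hsp90ab1 went from 570 ± 22.2 RPKM in Ad-Cre to 733 ± 19.4 RPKM in Ad-Cre + JNK inhibitor (SD, n = 4), a log2 difference of 0.51 (SE 0.16, adjusted p = 0.396, limma, and exact permutation p = 0.0286). With the preparation as a block its adjusted p was 0.0307, the lowest over the alternatives, of which the highest was 1.00. Hsp90aa1 went from 149 ± 6.04 to 182 ± 16.9 RPKM, a log2 difference of 0.43 (SE 0.13, adjusted p = 0.403, limma, and 0.0541 with the block; 0.0541 to 1.00 over the alternatives). Hspe1 went from 28.3 ± 3.14 to 39.3 ± 9.68 RPKM, a log2 difference of 0.58 (SE 0.15, adjusted p = 0.304, limma, and 0.0414 with the block; 0.0414 to 1.00 over the alternatives). In the RPKM as deposited the highest Hspe1 value of Ad-Cre, 31.4, lay just above the lowest with the inhibitor, 31.3. Each of these 3 was higher with the inhibitor in 4 of 4 preparations. The size depended on the processing. Over the alternatives the log2 difference ran from 0.09 to 0.55 for Hsp90ab1, 0.15 to 0.51 for Hsp90aa1 and 0.44 to 0.65 for Hspe1.

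Marker sums of other islet cells were higher in the same libraries. The summed RPKM of 5 α cell markers went from 21533, 12796, 13353 and 11801 in Ad-Cre to 23278, 13263, 27225 and 17466 with the inhibitor, and that of 3 δ cell markers from 2551, 2045, 2481 and 1134 to 3843, 2817, 6831 and 2466. Both sums were higher in 4 of 4 preparations and most in M2, where Hspe1 also differed most. The sum of 7 macrophage markers was higher in 4 of 4 as well, 69.7 to 205 RPKM against 174 to 291 RPKM. In M2 and F2 the rise was mainly that of Lyz2 (114 to 225 and 90.0 to 171 RPKM). C1qb, C1qc, Adgre1 and Csf1r were lower there. C1qa was lower in M2 and level in F2, and Cd68 was higher in M2 and lower in F2. The sum of 9 β cell markers, mostly Ins1 and Ins2, was lower in 3 of 4 and higher in F2. Its markers did not all move alike. Ins1, Pdx1, Nkx6-1, Slc2a2 and G6pc2 were each lower in 4 of 4. Ins2 was higher in M2 and F2, Iapp in all but M2, Mafa in F2 and Ucn3 in M2. Every one of these α, δ, β and macrophage markers had a mean above 1 RPKM in both groups. The α and δ sums were also higher in Ad-Cre + JNK inhibitor than in Ad-LacZ + JNK inhibitor in 4 of 4 preparations, the comparison in which both HSP90 genes passed. The part of these cells in the differences of Hsp90aa1, Hsp90ab1 and Hspe1 was not tested.

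Hspb1 went the other way. Its levels of 13.1, 15.5, 49.4 and 19.7 RPKM in Ad-Cre compare with 6.58, 9.10, 18.8 and 12.6 RPKM with the inhibitor, lower in 4 of 4 preparations. The log2 difference was -0.75 (SE 0.37, adjusted p = 0.654, limma, and 0.0268 with the block, 0.0268 to 1.00 over the alternatives). In M2 the stromal marker sum was also lower with the inhibitor, 145 against 676 RPKM, as it was in F2 (108 against 175 RPKM) and M1 (25.6 against 31.4 RPKM). In F1 it was higher (26.6 against 21.8 RPKM). The part of these cells in the fall of Hspb1 was not tested. The block fit thus gave 3 calls, Hsp90ab1, Hspe1 and Hspb1, against 6.41% of genes.

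Whether the inhibitor acted differently under the 2 viruses was tested as an interaction over 16 libraries. No member and no gene of 12274 passed an adjusted p of 0.05 (limma), with 3.09% of genes under an unadjusted p of 0.05. The largest interaction among the members was that of Hsp90aa1, 0.48 on the log2 scale (SE 0.15, unadjusted p = 0.00681), followed by Hsp90ab1 at 0.43 (SE 0.19, unadjusted p = 0.0345), both with an adjusted p of 1.00. With the block these adjusted p were 0.187 and 0.228.

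The ER chaperones were the yardstick. Of 17 genes listed for that compartment, 14 were higher in Ad-Cre than in Ad-LacZ, 0 were lower and 3 did not pass (limma), and their median change was 1.52. These 14 are 82.4% of the list, beside 15.9% of all genes. The mean of Creld2, an ER stress-inducible protein, went from 52.7 to 670 RPKM, and that of Sdf2l1, a cofactor of GRP78, from 58.9 to 431 RPKM. Canx (calnexin, the membrane lectin chaperone) rose by 0.49 on the log2 scale (adjusted p = 0.0392, limma). With the inhibitor, 14 of the 17 were again higher in Ad-Cre, beside 19.7% of all genes passing, and the median was 1.90. The comparisons without and with the inhibitor share no library but come from the same 4 preparations.

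Other lists, mostly of the cytosol, stood nearer to the 10 members. Of 33 genes of the HSF1 pathway and its cochaperones, 32 were tested and 2 were higher and 3 lower in Ad-Cre than in Ad-LacZ, with a median of 0.08. These 5 are 15.6% of the list, beside 15.9% of all genes. With the preparation as a block 6 were higher and 3 lower, 28.1% beside 34.5% of all genes. Among those 6 was Serpinh1, whose product HSP47 is a collagen chaperone of the ER and not of the cytosol. It had the largest change of the list (log2 difference 0.85, SE 0.54; adjusted p = 0.315, limma, and 0.0455 with the block). In F1, M1, M2 and F2 Serpinh1 differed by 0.13, 0.14, 1.73 and 1.39. The stellate and fibroblast marker sum was likewise higher in Ad-Cre only in M2 and F2, and the part of these cells was not tested. Bag3, a nucleotide exchange factor that sends HSP70 clients to autophagy, went from 26.1 ± 5.58 to 41.6 ± 4.60 RPKM (log2 difference 0.69, SE 0.14; adjusted p = 0.0128, limma). Hspa2, an HSP70 best known from the testis, rose by 0.52 (adjusted p = 0.0423). Chordc1, a partner of HSP90, fell by 0.68 (adjusted p = 0.00866), Hspa4l, an HSP110 family member, fell by 0.51 (adjusted p = 0.0221) and the transcription factor Hsf2 fell by 0.41 (adjusted p = 0.0156). Hsf1 itself was level, at 11.9 ± 1.47 and 11.9 ± 1.85 RPKM. With the inhibitor, Bag3, Hspa2 and Stub1, the ubiquitin ligase CHIP, were higher in Ad-Cre and Chordc1 was lower, and the median was 0.24. These are 4 of 32, beside 19.7% of all genes, and the block added 1 that was higher.

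Of the 8 subunits of the cytosolic chaperonin, which folds actin and tubulin, 0 passed without the inhibitor (limma; 2 at an unadjusted p under 0.05, median 0.05) and 1 passed with it, Cct3, which rose by 0.55 (adjusted p = 0.0132). With the preparation as a block Cct3 also passed without the inhibitor (log2 difference 0.31, adjusted p = 0.0244, against 0.0529 unblocked), and 2 subunits passed with it. Of all genes, 15.9% passed without the inhibitor and 19.7% with it, and with the block 34.5% and 24.2%. An unadjusted p under 0.05 was reached by 3786 of 11590 genes without the inhibitor. Of 9 mitochondrial chaperones and proteases, 3 were higher in Ad-Cre without the inhibitor, with a median of 0.26, and 4 with the preparation as a block, Dnaja3 being the added one (adjusted p = 0.0455). These are 33.3% and 44.4% of the list, beside 15.9% and 34.5% of all genes. Lonp1, the matrix protease, rose by 1.09 (SE 0.12, adjusted p = 0.00141, limma), while Hspa9, the mitochondrial HSP70, and its exchange factor Grpel1 each rose by 0.68 (adjusted p = 0.00983 and 0.00939). With the inhibitor, 4 of the 9 were higher, beside 19.7% of all genes passing: Lonp1 by 1.25, Grpel1 by 1.04, Hspa9 by 0.77 and Dnaja3, the mitochondrial HSP40, by 0.50.

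**Figure D4:**
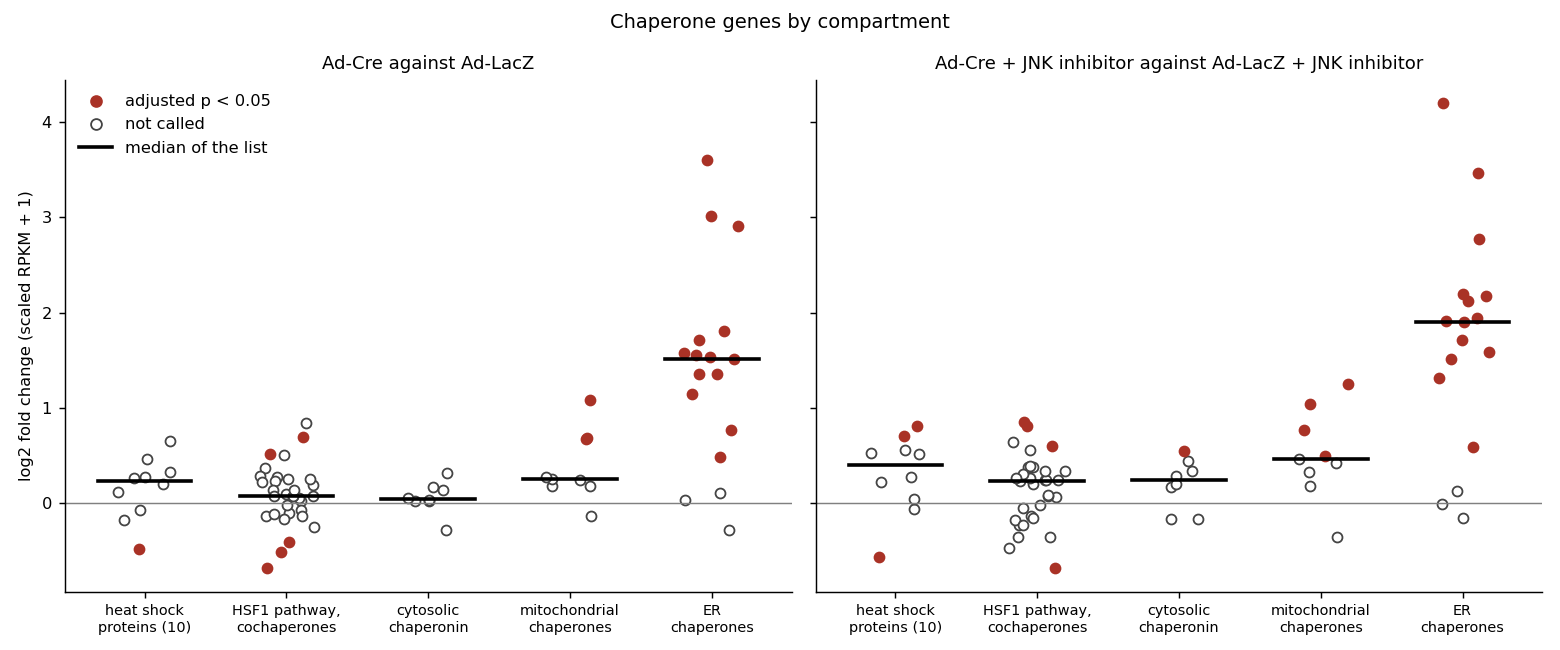
Log2 fold change (vertical axis) of each tested gene in 5 chaperone lists for Ad-Cre against Ad-LacZ, without (left) and with (right) the JNK inhibitor; red points have an adjusted p under 0.05 and bars are list medians. The ER chaperones have medians of 1.52 and 1.90, the 10 heat shock proteins of 0.23 and 0.40.

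Pairs of ER and cytosolic chaperones of the same family were then compared inside each library, where no scaling between libraries enters. All 5 ratios of ER to cytosolic RPKM were higher in Ad-Cre than in Ad-LacZ in 4 of 4 preparations, with no overlap, without the inhibitor and with it (exact permutation p = 0.0286, the smallest possible, and 0.0286 after adjustment over the 5 pairs in each comparison). The 4 ER genes were each called higher on their own in both comparisons, and Hsp90b1 enters with both cytosolic HSP90 genes. The ratios thus restate that rise against members that changed less, and their tests are no separate support for it. The permutation test ignores the pairing of the preparations. The exact paired sign-flip test gave p = 0.125 for each ratio, the smallest that 4 pairs allow, so that it cannot pass 0.05.

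For HSP70, Hspa5 over Hspa8 was 1.71, 1.63, 1.25 and 1.14 in Ad-LacZ and 3.73, 3.84, 4.94 and 6.61 in Ad-Cre. F2 had the lowest ratio of the 4 preparations under the control virus and the highest under the Cre virus. The mean log2 difference was 1.72 (SE 0.24). With the inhibitor the ratios were 1.37, 1.5, 1.1 and 1.2 against 4.68, 5.00, 4.21 and 7.21, a log2 difference of 2.01 (SE 0.20).

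For HSP90, Hsp90b1 (GRP94, the HSP90 of the ER) was set over both cytosolic isoforms. Hsp90b1 over Hsp90ab1 was 1.26, 1.26, 0.895 and 1.17 in Ad-LacZ and 2.24, 2.61, 3.49 and 4.54 in Ad-Cre, a log2 difference of 1.45 (SE 0.26). Over Hsp90aa1 the difference was 1.38 (SE 0.25). In RPKM the ER isoform was thus about level with Hsp90ab1 under the control virus and above it under the Cre virus. With the inhibitor both cytosolic isoforms were higher as well, and the log2 differences of the ratios were 1.42 (SE 0.28) and 1.31 (SE 0.27).

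For the nucleotide exchange factors, Hyou1 (GRP170) over Hsph1 was 6.38, 6.97, 5.49 and 4.66 in Ad-LacZ and 17.8, 19.0, 21.8 and 29.0 in Ad-Cre, a log2 difference of 1.89 (SE 0.20). For the HSP40 proteins, Dnajb11 (ERdj3) over Dnajb1 went from 4.83, 5.25, 4.27 and 6.61 to 8.22, 10.5, 11.3 and 17.9, a log2 difference of 1.15 (SE 0.27), the smallest of the 5. With the inhibitor these 2 differences were 1.98 (SE 0.29) and 1.44 (SE 0.26).

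The inhibitor moved none of the 5 ratios past the test within a virus. In Ad-Cre the log2 differences with the inhibitor ran from -0.10 (SE 0.28) for Hyou1 over Hsph1 to 0.40 (SE 0.25; exact permutation p = 0.20) for Dnajb11 over Dnajb1, with adjusted p of 0.929 or above. In Ad-LacZ they ran from -0.20 to 0.19, with adjusted p of 0.743 (exact permutation tests).

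**Figure D5:**
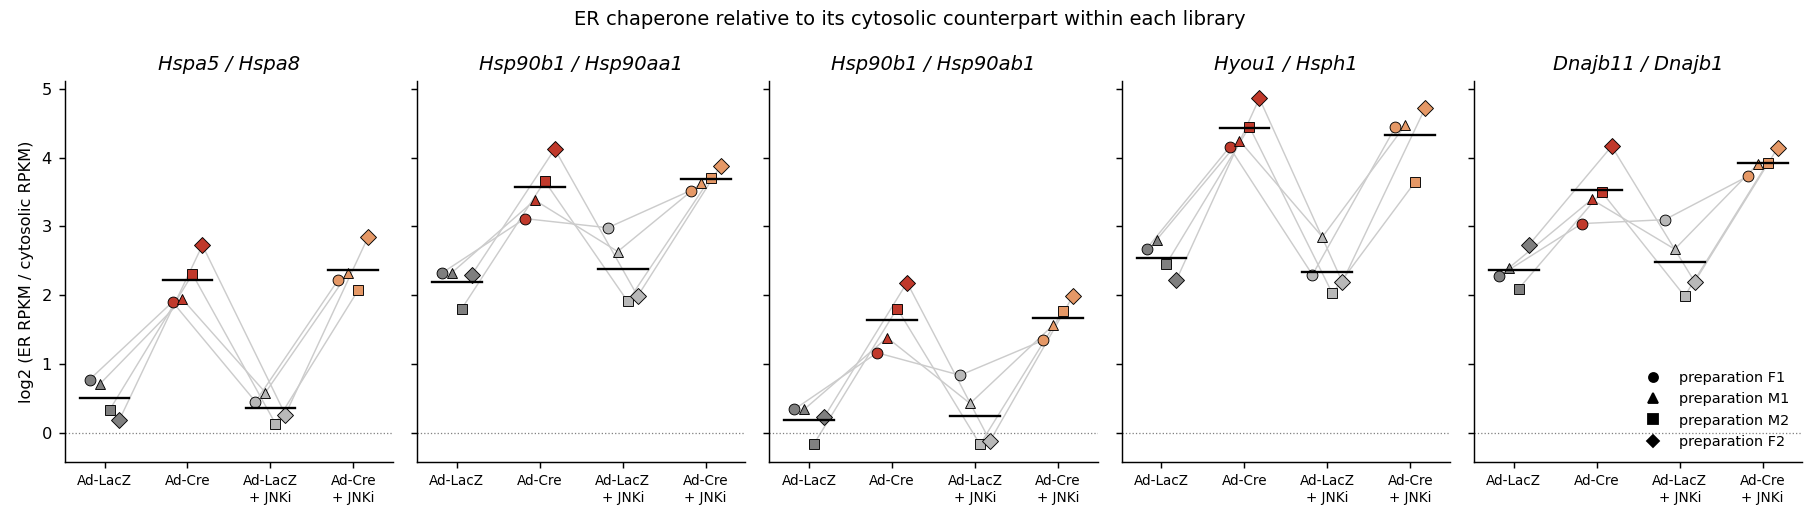
Log2 ratio of the RPKM of an ER chaperone to that of its cytosolic counterpart (vertical axis) in each of 16 libraries, for 5 pairs; grey lines join libraries of one preparation and bars are means of 4. In every pair the 4 Ad-Cre libraries lie above the 4 Ad-LacZ libraries, without and with the inhibitor.

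The summed RPKM of the ER list was also higher against that of the members. These sums are of RPKM as deposited. Hsp90ab1, Hspa8 and Hsp90aa1 made up 86.5 to 92.3% of the member sum, which therefore says little of the other members. The 10 members together came to 936 to 1090 RPKM in Ad-LacZ and 1053 to 1154 RPKM in Ad-Cre, ranges that overlap, and to 991 to 1074 and 1258 to 1380 RPKM with the inhibitor, which do not. The 17 ER chaperones came to 2588 to 3242 RPKM in Ad-LacZ and 7648 to 11843 RPKM in Ad-Cre. The ER sum was 2.46 to 3.30 times the sum of the members in Ad-LacZ and 6.63 to 11.2 times in Ad-Cre.

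Ratios between members changed within the cytosol too, given here as values with no test. Dnaja1 stood at 1.51 to 2.43 times the level of Dnajb1 in Ad-LacZ and 0.836 to 1.27 times in Ad-Cre, and at 1.62 to 2.64 against 0.807 to 1.45 times with the inhibitor. Hsp90ab1 was at 1.46 to 1.59 times Hspa8 in Ad-LacZ and 1.96 to 2.30 times in Ad-Cre, and with the inhibitor at 1.47 to 1.69 against 2.50 to 3.12 times. In neither of these pairs of ranges was there an overlap, and Hsp90aa1 over Hspa8 and Dnaja1 over Hspa8 also stood apart. The ranges of Hspa1b over Hspa8, Dnajb1 over Hspa8 and Hspa1b over Hspa1a overlapped between the viruses, without and with the inhibitor. The share of all gene pairs without an overlap was not computed. The ratio of Hsp90aa1 to Hsp90ab1 stayed between 0.216 and 0.277 in all 16 libraries.

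Across the 16 libraries the members fell into unlike patterns, described here by Pearson's r of log2 levels. The libraries come from 4 preparations and share virus and inhibitor, so they are not independent points. Hsp90aa1 followed Hsp90ab1 (r = 0.956), Hspa1a followed Hspa1b (r = 0.926) and Hsph1 followed Hspa8 (r = 0.809), and Hspa8 ran against Hspa1b (r = -0.751). These 4 pairs had the same sign with the mean of each group subtracted (r = 0.820, 0.931, 0.902 and -0.888). Dnaja1 and Hsp90aa1 did not: r was -0.649 over the libraries and 0.732 after the subtraction. Among 12274 genes the 3 most like Dnaja1 were Bicd1, Ift81 and Mia2 (r = 0.974 to 0.979), and the 3 most like Hsp90aa1 were Rnf227, Bcas2 and Dazap2 (r = 0.976 to 0.982). For Hspb1 they were Tgm2, Slc1a6 and Dusp1 (r = 0.955 to 0.960) and, after the mean of each group was subtracted, Cnn2, Dock1 and Ehd2 (r = 0.970 to 0.971). For Hspa1b after that subtraction they were Mrc2, Adcyap1r1 and Slc20a1 (r = 0.980 to 0.987).

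The spread between preparations differed among members as well. In Ad-Cre the highest of the 4 scaled levels was 3.38 times the lowest for Hspa1b, 3.17 times for Hspa1a and 3.04 times for Hspb1. It was 1.26 times for Hsp90aa1, 1.23 times for Dnaja1 and 1.06 times for Hspe1. Preparation M2 held the highest level of Hspb1 and of Hspa1a in all 4 groups.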

How the data were processed

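Poly(A) RNA libraries were sequenced as paired ends. Reads were aligned by the authors, with build GRCm38 per the submitters' processing notes, and the values deposited by the authors are RPKM, with the step from counts to RPKM not given in the sources used here. A further 3 columns that no label names were not used. Depth came from the steps of low values times the length of merged GENCODE M21 exons (92.4 to 93.9% of low values were whole within 0.05 reads). RPKM values were scaled by TMM (trim 30% and 5%), kept where 4 or more of the 8 libraries compared exceeded 1 RPKM, and fitted as log2(RPKM + 1) by linear models with a trended prior variance (limma 3.58.1 under R 4.3.3), unblocked, with adjusted p by Benjamini-Hochberg over all genes. Fold changes on this scale understate those of low genes. Single genes and ratios had exact two-sided permutation tests (scipy 1.17.1). Beside these, 4 comparisons of 2 groups and their interaction (16 libraries) were made. The code was tested on simulated data. The preparations pair the libraries, since the methods of the study describe parallel cultures of the same islet cells, and residuals of libraries of the same preparation correlated at 0.131 to 0.827. P-values measure the spread between 4 preparations. Blocked values or counts are given where they change the calls of members or, between the 2 viruses, of the other lists. The members and lists were chosen with earlier results of these data known. Named genes were the members, called genes of the lists (at most 4 rises and 4 falls), ER counterparts and the 3 genes most like a member.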

Additional observations from a re-analysis of the deposited data

Results flagged for a closer look

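In 2 of 40 sets of 4 libraries 1 library stood far from the other 3, about as many as chance flags, which is 1 in 20. Both were the Ad-LacZ library of preparation F2. Dnaja1 was at 23.5 RPKM there against 19.8 to 20.02 RPKM in the other 3, and Hspe1 was at 36.7 RPKM against 22.5 to 24.3 RPKM.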

How the results depend on the processing

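Alternatives were a pseudocount of 0.1, a filter at 0.1 RPKM or none, RPKM as deposited, quantile normalization, the preparation as a block, a variance without trend, all 16 libraries in 1 fit and each preparation left out. Leaving out the shallow Ad-Cre + JNK inhibitor library of F2 and summing Hspa1a with Hspa1b were chosen after seeing the data. Of the member results under an alternative, 569 kept direction and side of the threshold, 26 changed sign, 16 gained a call and 14 lost one, and the cause was not tested. RPKM as deposited moved the median of all genes to -0.14 on the log2 scale for the inhibitor in Ad-Cre and for the 2 viruses compared with the inhibitor, and to -0.12 for the interaction.

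Without the inhibitor, 1 member was called in Ad-Cre against Ad-LacZ, and 2 as deposited, 2 after quantile normalization and 0 to 1 with a preparation left out (0 without F1, M1 or F2). With the inhibitor, 3 were called, 0 to 3 with a preparation left out (0 without M1 or F2) and 1 without the shallow library. Over all genes, calls went from 1845 to 164 and from 2284 to 248 without F2. With the preparation as a block, the paired analysis, 4 members were called without the inhibitor, 5 with it, 3 for the inhibitor in Ad-Cre and 0 for the inhibitor in Ad-LacZ. The block changed no other call of a member.

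Signs changed only in results past no threshold, except that of Hsp90ab1 with the inhibitor. After quantile normalization Hsp90ab1 was -0.19 for Ad-Cre against Ad-LacZ, -0.0083 for the same with the inhibitor and -0.12 for the inhibitor in Ad-LacZ, Hspa8 was -0.13 for the inhibitor in Ad-Cre, -0.057 in Ad-LacZ and -0.064 for the interaction, and Hsph1 was -0.0035 for the inhibitor in Ad-LacZ. As deposited, the inhibitor in Ad-Cre gave -0.10 for Dnajb1 and -0.11 for Dnaja1, Ad-Cre against Ad-LacZ with the inhibitor gave -0.10 for Hspb1, and the interaction was -0.021 for Hspa8 and -0.053 for Dnajb1. Hspa8 was 0.046 with the inhibitor without the shallow library. With a preparation left out, Hsph1 ran from -0.14 to 0.0087 between the viruses without the inhibitor and from -0.031 to 0.070 for the inhibitor in Ad-LacZ, where Hspa8 ran from -0.073 to 0.16, Dnajb1 from -0.13 to 0.061 and Hspe1 from -0.012 to 0.39. For the inhibitor in Ad-Cre, Dnajb1 ran from -0.027 to 0.12 and Dnaja1 from -0.040 to 0.062. For Ad-Cre against Ad-LacZ with the inhibitor, Hspb1 ran from -0.0012 to 0.13. The interaction ran from -0.32 to 0.072 for Hspa1b, -0.0026 to 0.18 for Dnajb1 and -0.14 to 0.046 for Dnaja1. For the 5 compartment ratios these alternatives test little. The groups do not overlap, so leaving out a preparation cannot change the sign, and a scale factor of a library cancels within a ratio. With a pseudocount of 1 the log2 differences between the viruses were 1.15 to 1.88 without the inhibitor and 1.31 to 2.01 with it.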
